A study of Homo sapiens with 2 samples.

Results

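Genes that carry fatty acids into the cell, activate them, burn them, store them in lipid droplets and release them were compared between 2 cultures. Both are labelled OVCAR-3, the name of a human ovarian carcinoma line. The members are 48 genes listed by name from the known pathways, with earlier results of these data known and with no threshold on their values, made up of 24 for oxidation, 11 for uptake and activation, 9 for storage and 4 for lipolysis. Of these, 41 had at least 50 counts over both libraries, out of 14157 genes that did so among the 28038 listed. The control culture carried a blank viral vector, and the other culture was engineered to overexpress IGF2BP3, which binds RNA and recognises m6A-modified transcripts. By their labels both are otherwise the same line. The sources used here name neither the promoter that drives IGF2BP3 nor whether a pool or a clone was used. Poly(A) RNA was sequenced from 1 culture per group, so there was no replicate error, no test was possible, and every difference is between these 2 libraries.

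Fatty acids enter cells with the help of binding proteins, transporters and lipoprotein receptors, and acyl-CoA synthetases activate them to acyl-CoA. The carnitine shuttle then moves long-chain acyl groups into mitochondria, where repeated rounds of dehydrogenation, hydration, a second dehydrogenation and thiolysis shorten them; peroxisomes shorten the very long ones. Alternatively, acyl groups are built onto glycerol, stored as triglyceride in droplets coated by perilipins, and set free by lipases.

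Several facts of the libraries bear on all values. Total counts were 43190215 for control and 48017861 for overexpression. IGF2BP3 had 2944 and 6376 counts, at 67.9 and 133 CPM (counts scaled to the library size, here after TMM normalisation), and FASN, the fatty acid synthase of the series title, had 510 and 556 CPM. Defining markers of the labelled cell type were mostly low: of 12 epithelial markers 8 were listed and 1, KRT18, reached 10 CPM in either library. Of 9 ovarian serous carcinoma markers 3 were listed and none reached it. Of 5 mesenchymal markers 3 reached 10 CPM, and the 5 summed to 2249 (control) and 2223 CPM (overexpression), mostly from VIM at 2175 and 2149 CPM. Adipocyte markers, from cells rich in droplet genes, summed to 0.185 (control) and 0.209 CPM (overexpression) over the 1 of 5 listed, PLIN1. Hepatocyte markers, from cells rich in oxidation genes, summed to 0.554 and 0.857 CPM over the 3 of 6 listed.

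The sequences below are promoter stretches of members whose values are given further on. HADHA and HADHB, which encode the alpha and beta subunits of the mitochondrial trifunctional protein, lie head to head on chromosome 2. Their RefSeq start sites are 307 bases apart, at 26244632 for HADHA on the minus strand and at 26244939 for HADHB on the plus strand of GRCh38.p14. The promoter windows of both genes, each from 250 bases before to 50 after the start, share 194 bases. ACSL3 and ACSL1 are the acyl-CoA synthetases with the highest levels among the members, and 1 window of each is shown. Each line is printed 5′ to 3′ on the strand given. Capitals mark GC boxes, with the letters GGGCGG, boxes of the letters CCAAT and, in ACSL1, a sterol element with the letters TCACNCCAC, each on either strand, so that neighbouring capitals can belong to separate matches. The ACSL1 window was picked because it is the only 1 of the gene's 5 with a sterol element. The ACSL1 window nearest the annotated gene start, with its start site at 184825968, held 6 GC boxes and no sterol element.
HADHA and HADHB, shared, chr2:26244689-26244882, plus strand: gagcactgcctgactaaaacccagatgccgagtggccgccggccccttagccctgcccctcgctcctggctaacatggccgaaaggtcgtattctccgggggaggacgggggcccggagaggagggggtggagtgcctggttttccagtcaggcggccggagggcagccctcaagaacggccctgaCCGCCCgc
ACSL3, chr2:222860786-222861085, plus strand: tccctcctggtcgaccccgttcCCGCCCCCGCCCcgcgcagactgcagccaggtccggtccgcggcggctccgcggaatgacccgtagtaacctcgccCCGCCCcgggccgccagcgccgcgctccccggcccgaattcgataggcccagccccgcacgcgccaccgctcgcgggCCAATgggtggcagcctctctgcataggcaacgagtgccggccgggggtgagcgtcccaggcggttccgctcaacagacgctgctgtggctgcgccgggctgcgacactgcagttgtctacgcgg
ACSL1, 1 of its 5 windows, chr4:184805504-184805803, minus strand: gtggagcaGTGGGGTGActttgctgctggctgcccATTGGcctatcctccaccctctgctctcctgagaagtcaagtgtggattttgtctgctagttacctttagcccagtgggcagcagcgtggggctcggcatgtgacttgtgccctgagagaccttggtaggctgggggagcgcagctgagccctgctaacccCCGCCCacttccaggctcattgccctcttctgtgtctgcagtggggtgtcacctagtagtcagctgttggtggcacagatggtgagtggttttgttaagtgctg

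RefSeq windows were found for 35 of the 41 measured members, 55 windows in all. A GC box stood in 40 of these 55 windows and in 45.0% of all 35116 windows in the table. A CCAAT box stood in 11 of the 55 and in 34.6% of all. The sterol element, a sequence to which SREBP proteins are known to bind, was found in 3 windows, those of ACSL1, ACSL6 and PNPLA2, and in 1.13% of all windows. The PPAR element searched, AGGTCANAGGTCA, was in none of the 55 and in 0.0228% of all windows. These are matches of letters only.

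The members, like most genes, differed little between the libraries. Of the 41 measured members 3 were at least 1.2-fold different on the scale of CPM plus 1, MGLL higher and ACSL6 and PLIN4 lower, each with fewer than 200 counts over both libraries. Among all 14157 measured genes 13.2% were at least 1.2-fold different, 7.49% higher and 5.74% lower. None of the 41 was 1.5-fold different on this scale, against 1.66% of all genes. On the scale of CPM plus 0.1, which damps low genes less, 2 of the 41 were, PLIN4 at a log2 ratio of -0.61 and MGLL at 0.59, against 5.28% of all genes. Among the 37 members with at least 200 counts none was 1.2-fold different, where 9.83% of the 11474 genes with that many counts were. The median log2 ratio (overexpression over control, CPM plus 1) was -0.004 over the members and 0.004 over all genes. The median size of the log2 ratio, without its sign, was 0.096 over the members and 0.101 over all genes. The members had the higher level, with a median of 38.6 CPM in the control library against 22.2 over all genes. Of the 41, 19 were above 0 and 22 below, and 51.1% of all genes were above 0.

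By group, the 22 measured oxidation genes had a median log2 ratio of -0.02 and a range of -0.19 to 0.22, with 9 above 0 and 13 below. The 8 uptake and activation genes had a median of 0.06 and ran from -0.27 to 0.19, with 4 on each side. The 8 storage genes had a median of 0.05 and ran from -0.33 to 0.19, with 5 above 0. The 3 lipolysis genes had a median of -0.004 and ran from -0.10 to 0.27. At 1.1-fold, a threshold that 37.2% of all genes passed, 5 of 22 oxidation genes, 5 of 8 uptake and activation genes, 4 of 8 storage genes and 1 of 3 lipolysis genes were different. The 4 medians lay within 0.08 of each other, and differences between groups were not tested.

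**Figure D1:**
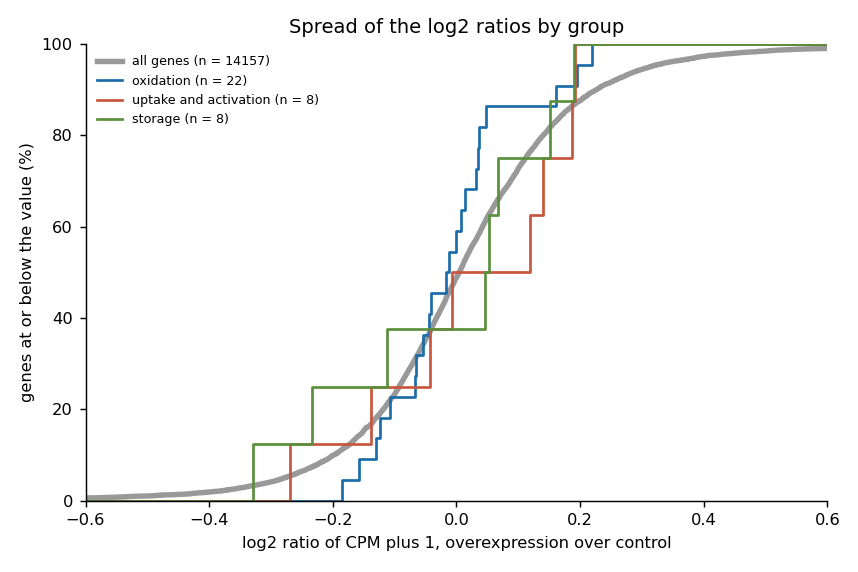
Share of genes (vertical axis, percent) at or below each log2 ratio of CPM plus 1 (horizontal axis, overexpression over control) for all 14157 measured genes and for 3 groups of members; lipolysis, with 3 genes, is not drawn, and genes beyond 0.6 lie outside the axis. The oxidation curve ends at 0.22 and starts at -0.19, and the storage curve starts at -0.33.

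The 95% exact (Clopper-Pearson) counting interval of the CPM ratio lay off 1-fold for 18 of the 41 members and for 41.4% of all genes. With counts divided by 2, since the excess of even counts would arise if both mates of a pair were counted, it did so for 12 members and for 26.8% of all genes. These 12 were CPT1A, CPT1C, ACADVL, ACADSB, HADH, ACAA2, PPARA, ACSL1, ACSL3, LPIN1, DGAT2 and PLIN3. CPT1A was marginal, since its interval from halved counts ended at 0.9985. The intervals were computed with TMM scaling only. Intervals printed beside a ratio are from the counts as deposited, and they leave out any variation between cultures. In such bulk RNA, fewer cells that hold a transcript and less transcript per cell cannot be told apart.

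**Figure D2:**
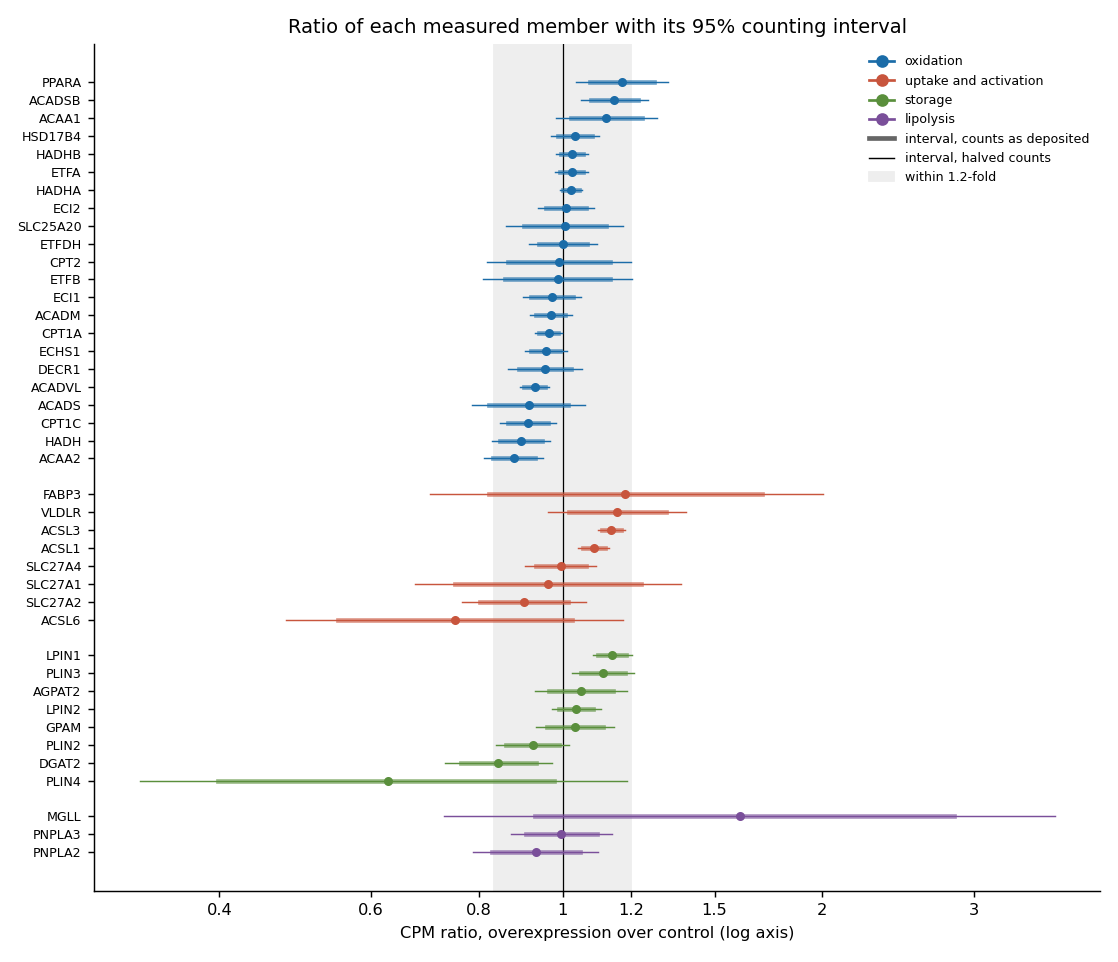
CPM ratio of each of the 41 measured members (horizontal log axis, overexpression over control; 1 point per gene, sorted within its group) with its 95% counting interval from the counts as deposited (thick) and from halved counts (thin). The points of all 22 oxidation genes lie within the grey band of 1.2-fold, and the widest intervals are those of PLIN4, ACSL6, FABP3 and MGLL.

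In the carnitine shuttle, CPT1A, the outer-membrane transferase that malonyl-CoA inhibits, had 11608 control and 12351 overexpression counts, at 268 and 258 CPM. Its ratio was 0.963 (0.939 to 0.988), so that the overexpression library was slightly the lower. CPT1C, the brain-type paralog with little transferase activity, went from 64.1 to 58.4 CPM, a ratio of 0.912 (0.865 to 0.962). The muscle-type CPT1B had 8 and 13 counts, too few to compare. In FPKM, which divides by gene length, CPT1A held 78.8% of the family's summed 51.9 under control and 79.7% of 49.1 under overexpression. The inner-membrane transferase CPT2 stood at 9.55 and 9.46 CPM and the carnitine-acylcarnitine carrier SLC25A20 at 14.4 and 14.5 CPM. The intervals of CPT2 and SLC25A20 reached across 1-fold, and none of the 4 measured shuttle genes differed by 1.1-fold.

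Of the acyl-CoA dehydrogenases, which start each round, the very-long-chain enzyme ACADVL had the highest level, 47.2 FPKM under control and 43.5 under overexpression. Its 9818 and 10063 counts gave a ratio of 0.928 (0.902 to 0.954). The medium-chain ACADM, at 114 and 110 CPM, and the short-chain ACADS, at 16.3 and 14.9 CPM, were also below 0 on the log2 scale, at -0.05 and -0.12, with intervals that held 1-fold. ACADSB, which acts on short branched-chain acyl-CoA from isoleucine, went the other way. It had 1761 and 2234 counts, or 40.6 and 46.7 CPM, a ratio of 1.15 (1.08 to 1.22). ACADSB (ENSG00000196177; chromosome 10, 123008979 to 123058311, plus strand, GRCh38) was the only 1 of the 4 dehydrogenase members above 0.

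The enzymes of the later steps included the most abundant member. HADHA stood at 96.7 and 98.3 FPKM, from 18088 and 20433 counts. Its ratio was 1.02 (1.002 to 1.04), and that of HADHB, with 7786 and 8819 counts, was 1.03 (0.994 to 1.06). The 2 subunit genes, whose promoter windows overlap, had log2 ratios of 0.03 and 0.04. A link between the overlap and these ratios was not tested. HADHA (ENSG00000084754) spans chromosome 2, 26190635 to 26244726, on the minus strand, and HADHB (ENSG00000138029) spans 26243170 to 26290468 on the plus strand; GENCODE release 29 has no exon base that they share. ECHS1, the short-chain enoyl-CoA hydratase, stood at 112 and 107 CPM, a ratio of 0.956 (0.919 to 0.994). HADH, the medium and short-chain hydroxyacyl-CoA dehydrogenase, had 2568 and 2539 counts, or 59.3 and 53.0 CPM, a ratio of 0.895 (0.847 to 0.946). The thiolase ACAA2, which cuts off acetyl-CoA in the last step, had 2526 and 2448 counts, or 58.3 and 51.1 CPM, and the lowest ratio among oxidation genes, 0.877 (0.830 to 0.928). Of these 5 genes 3 were below 0 and 2, the trifunctional pair, above.

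The auxiliary enzymes for unsaturated fatty acids stayed close to 1-fold, with intervals that held it. ECI1 had 56.8 and 55.2 CPM, ECI2 60.2 and 60.8 CPM, and the dienoyl-CoA reductase DECR1 36.5 and 34.8 CPM. The electron transfer genes, which pass electrons from the dehydrogenases to ubiquinone, were at log2 ratios of 0.03 (ETFA) and -0.02 (ETFB), while ETFDH had 42.1 CPM in each library, the smallest difference of all measured members with TMM scaling. ETFA and ETFB encode the 2 subunits of 1 protein, yet ETFA stood at 17.7 and 18.02 FPKM and ETFB at 1.39 and 1.36.

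Among peroxisomal enzymes, the thiolase ACAA1 had 802 and 996 counts, or 18.5 and 20.8 CPM, a ratio of 1.12 (1.02 to 1.24). Of the exon bases of ACAA1, 21.2% are shared with another annotated gene, mostly DLEC1 on the opposite strand, and the strand setting of the counting is not given, so its value is uncertain. The multifunctional enzyme HSD17B4 stood at 84.6 and 87.4 CPM, a ratio of 1.03 (0.989 to 1.08). EHHADH had 14 and 10 counts. PPARA, the nuclear receptor that drives oxidation genes in liver, had 940 and 1216 counts, or 21.7 and 25.4 CPM. Its ratio of 1.17 (1.07 to 1.28) was the highest of the oxidation group, and on the log2 scale, at 0.22, 2693 of the 14157 genes were at least as far from 0. PPARA (ENSG00000186951) spans chromosome 22, 46150521 to 46243756, plus strand. The other 2 PPAR genes, named after their values were seen, were at 1.18 (PPARD) and 1.14 (PPARG), and PPARD held 73.8% and 74.1% of the family's FPKM.

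**Figure D3:**
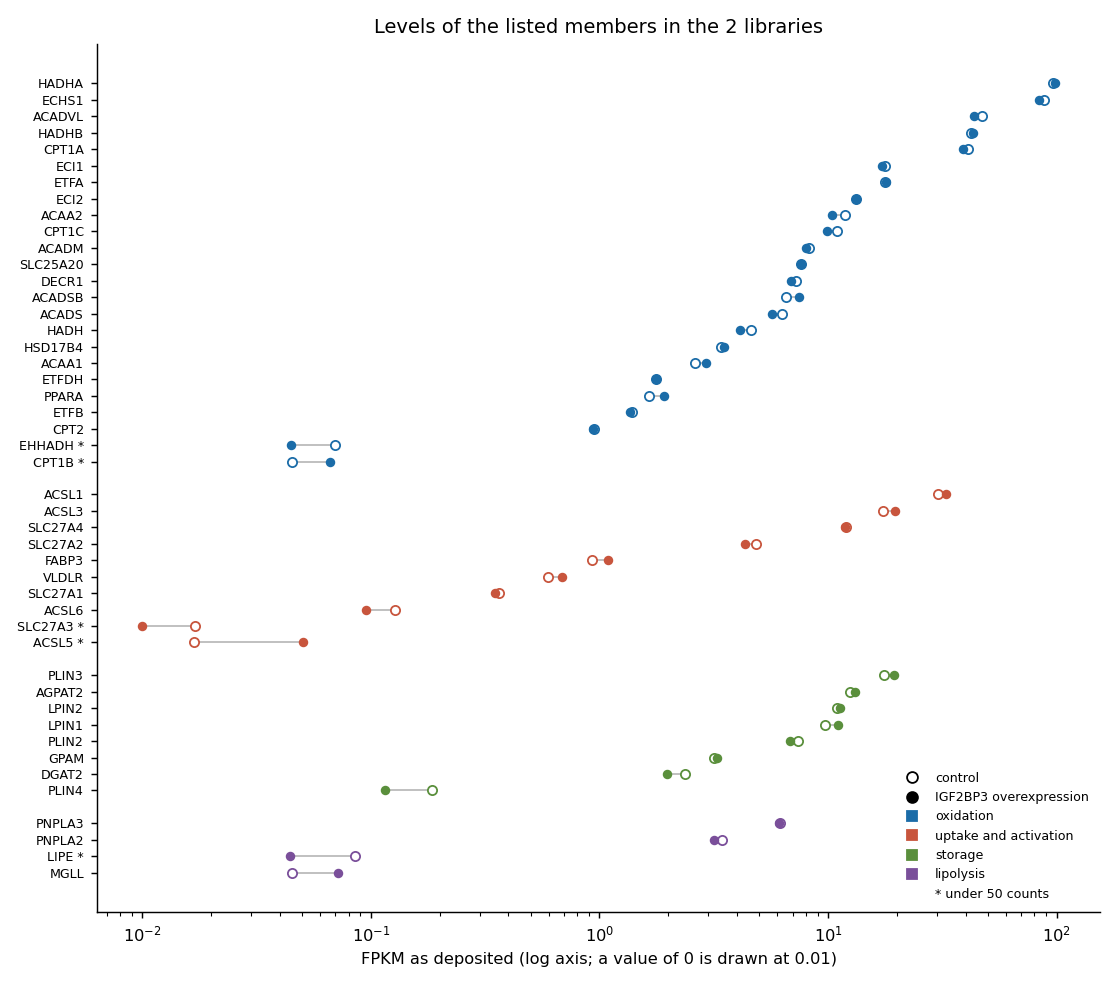
FPKM as deposited (horizontal log axis) of the 46 listed members under control (open circles) and overexpression (filled circles), 1 gene per row, sorted by the control level within each group. HADHA is the highest at 96.7 and 98.3, and members under 50 counts, marked with a star, lie below 0.1.

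Uptake genes were few and mostly low. SLC27A4, a fatty acid transport protein with acyl-CoA synthetase activity, had the highest level of the transporters, 12.0 and 11.9 FPKM, and a ratio of 0.995 (0.931 to 1.06). SLC27A2, the very-long-chain paralog, went from 13.4 to 12.1 CPM, a ratio of 0.902 (0.803 to 1.01), and SLC27A1 stood at 2.98 and 2.86 CPM. SLC27A3 had 4 counts under control and none under overexpression, where a count of 0 allows up to 3 counts, or 0.0625 CPM by the library total. FABP3, a fatty acid-binding protein of heart and muscle, had 56 and 73 counts, a ratio of 1.18 (0.822 to 1.70). VLDLR, a receptor for triglyceride-rich lipoproteins, had 425 and 543 counts, or 9.81 and 11.3 CPM, a ratio of 1.16 (1.02 to 1.32) whose interval from halved counts ran from 0.963 to 1.39. FABP5 was not analysed here.

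Both abundant acyl-CoA synthetases were higher in the overexpression library. ACSL3, which sits on the endoplasmic reticulum and on nascent lipid droplets, had 10841 and 13638 counts, or 250 and 285 CPM. Its ratio was 1.14 (1.11 to 1.17). ACSL3 (ENSG00000123983) spans chromosome 2, 222860934 to 222944639, plus strand. ACSL1, the family member with the highest level at 30.4 and 32.8 FPKM, had 8546 and 10258 counts and a ratio of 1.09 (1.06 to 1.12). It spans chromosome 4, 184755595 to 184826818, on the minus strand (ENSG00000151726). ACSL6, the brain-enriched paralog, was lower, from 94 to 78 counts, at 0.751 (0.549 to 1.03), an interval that reached 1-fold. ACSL5 had 3 and 10 counts, a ratio of 3.02 with an interval of 0.777 to 17.1. ACSL4, which prefers arachidonic acid and is not a member, had the highest ratio of the abundant paralogs, 1.32 (1.28 to 1.36), from 6503 and 9467 counts. With it the summed FPKM of the 5 ACSL genes was 63.1 under control and 72.4 under overexpression. ACSL1 held 48.2% of the first sum and 45.3% of the second, and ACSL4 23.9% and 27.3%.

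**Figure D4:**
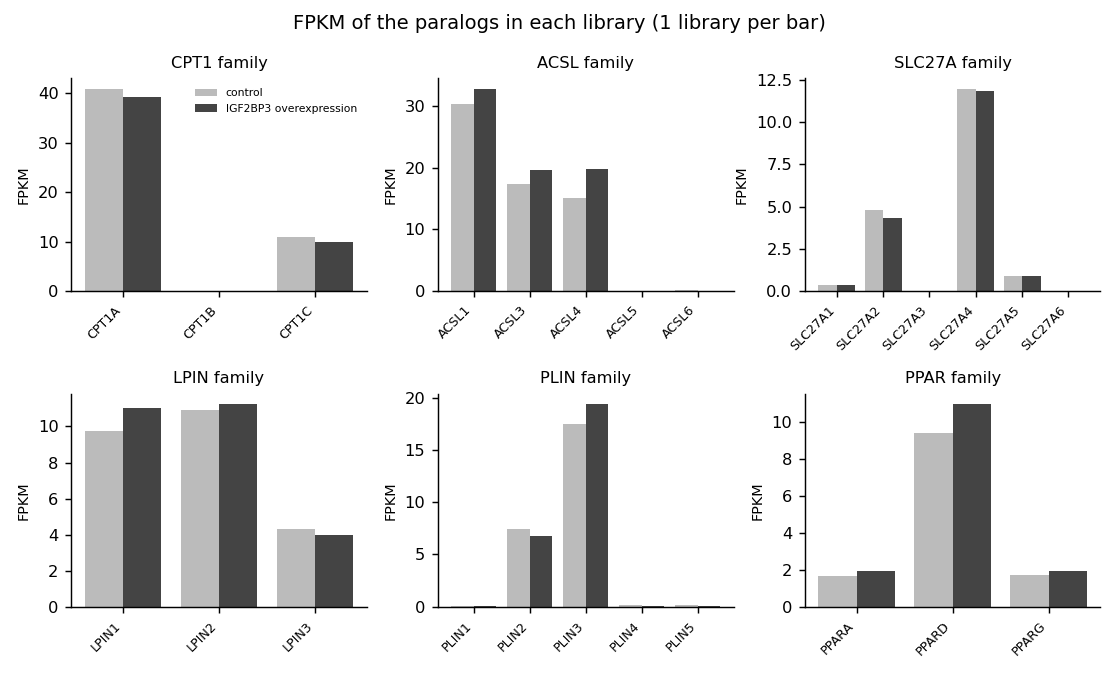
FPKM (vertical axes from 0, a separate scale per panel) of the members and their paralogs in 6 gene families, 1 bar per library, grey for control and dark for overexpression; bars carry no error because each is 1 library. CPT1A, ACSL1, SLC27A4, LPIN2, PLIN3 and PPARD are the highest of their families in both libraries.

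In triglyceride synthesis, LPIN1, a phosphatidic acid phosphatase that also acts as a nuclear coactivator, had 4989 and 6293 counts, or 115 and 131 CPM. The ratio was 1.14 (1.1 to 1.19), the highest of the storage group. LPIN1 (ENSG00000134324) lies on chromosome 2, 11677595 to 11827409, plus strand. LPIN2 stood at 80.2 and 83.1 CPM, a ratio of 1.04 (0.991 to 1.09). The acyltransferases of the first steps, GPAM at 31.0 and 32.1 CPM and AGPAT2 at 22.9 and 24.0 CPM, had intervals that held 1-fold. DGAT2, which adds the last acyl chain, went the opposite way to these. It had 805 and 749 counts, or 18.6 and 15.6 CPM, a ratio of 0.842 (0.761 to 0.932), and it was the lowest of the members with at least 200 counts. DGAT2 (ENSG00000062282) spans chromosome 11, 75759512 to 75801535, plus strand. DGAT1, the other enzyme of that step, was not analysed here. So of the 5 measured synthesis genes 4 were above 0 and DGAT2 was below.

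The droplet coat genes were split. PLIN3, a perilipin found in the cytosol and on small droplets, had 2073 and 2548 counts, or 47.8 and 53.2 CPM, a ratio of 1.11 (1.05 to 1.18). PLIN2, the ubiquitous droplet coat, had 1603 and 1634 counts, or 37.0 and 34.1 CPM, a ratio of 0.923 (0.861 to 0.989) whose interval from halved counts, 0.836 to 1.02, held 1-fold. PLIN4 had 52 and 36 counts, a ratio of 0.627 (0.398 to 0.977), or 0.324 to 1.19 from halved counts. PLIN5 and PLIN1, which are not members, fell under the count minimum. PLIN5 had 34 and 9 counts, a ratio of 0.240 (0.101 to 0.510), or 0.0642 to 0.703 from halved counts. PLIN1 had 8 and 10 counts. PLIN3 held 69.2% of the FPKM summed over 5 perilipins under control and 73.5% under overexpression, and PLIN2 29.2% and 25.7%. These shares rest on the gene length behind FPKM, and by the length of a coding transcript PLIN3 and PLIN2 lay closer, as given below.

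The lipolysis genes were low and close to 1-fold where counts allowed a comparison. PNPLA2, the lipase of the first step (adipose triglyceride lipase), had 566 and 582 counts, or 13.1 and 12.2 CPM, a ratio of 0.931 (0.828 to 1.05). It is the only measured member with genes at least 2-fold different within 1 Mb, namely PHRF1, RNH1 and TOLLIP. The share of all genes with such neighbours was not computed, so whether this is unusual is not known. PNPLA3, a related hydrolase, had 849 and 935 counts, 6.16 and 6.10 FPKM, and a ratio of 0.997 (0.908 to 1.095). MGLL, the monoglyceride lipase, had 22 and 39 counts, or 0.508 and 0.815 CPM, a ratio of 1.60 (0.928 to 2.84). With 61 counts over both libraries it was the member just inside the count minimum. LIPE, the hormone-sensitive lipase, was the member just outside it, with 19 and 11 counts.

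Of 95 other genes of these pathways, 79 were listed and 65 passed the count minimum. Of the 65, 7 were at least 1.2-fold different, or 10.8%, with 6 higher and 1 lower, where 13.2% of all genes were different, 7.49% higher and 5.74% lower. The share was thus near that of all genes, as was the median log2 ratio, 0.01 against 0.004. The genes named next are the 4 furthest from 0 in each direction, which any list has. The highest was ABCD2, a peroxisomal transporter of very-long-chain acyl-CoA, with 121 and 352 counts and a ratio of 2.63 (2.14 to 3.27). ACSL4 followed, at a log2 ratio of 0.40. Next were BSCL2, which encodes the droplet protein seipin, at 0.36 from 49 and 83 counts, and NUDT7, a peroxisomal CoA hydrolase, at 0.30 from 25 and 45 counts. The lowest were ABHD6, a monoacylglycerol lipase, at -0.28, the caveolin CAV1 at -0.26, the peroxisomal oxidase ACOX3 at -0.20 and the mitochondrial thiolase ACAT1 at -0.17. ABHD6, with 892 and 801 counts, was the 1 gene at least 1.2-fold lower, at 0.813 (0.738 to 0.895), because CAV1, at 0.808 (0.669 to 0.975), fell short on the scale of CPM plus 1.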

How the data were processed

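Values of each gene came from the authors: counts, so named in the file headers and given as whole numbers, and FPKM, which the authors computed from them. The authors' deposited log2 fold change lay within 0.003 of the log2 ratio of counts over library totals for the measured members. Per the submitters' processing notes the build was GRCh38. The aligner, counter, strand setting and annotation release were not given in the sources used here. Of low counts (1 to 20), 64.1% were even for control and 63.3% for overexpression.

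TMM scaling used edgeR 4.0.16 in R 4.3.3, and log2 ratios used CPM plus 1. Intervals cover counting error only, and they treat each count as independent. PCR reads without molecular identifiers are not independent molecules, so the intervals can be too narrow even for that error. The members and lists were chosen with earlier results of these data known. Named in full were the members furthest from 0 in each group (6 for oxidation, 4 for uptake and activation, 4 for storage, all for lipolysis), the highest FPKM of each family and group, and the 4 other pathway genes furthest from 0 in each direction. Scaling and intervals were run on simulated Poisson counts, the kind of error that the intervals assume. The simulation held no excess of even counts and no variation between cultures, so it could not test the intervals against either. Alternatives were DESeq2 1.42.0 size factors, library totals, other pseudocounts, count minimums and folds, FPKM and halved counts. Positions came from GENCODE release 29, which held 94.2% of listed gene IDs, and promoters from RefSeq (GRCh38.p14). Python 3.11.15, scipy 1.17.1 and matplotlib 3.10.9 were used.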

Additional observations from a re-analysis of the deposited data

How the results depend on the processing

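No paired analysis was possible because each group has 1 sample. The count of 3 members at least 1.2-fold different was 0 with a pseudocount of 5 CPM, a count minimum of 200, or FPKM plus 1, and 1 with FPKM plus 0.1; all 3 members have few counts, and the larger constants weigh most on low genes. It was 15 at a threshold of 1.1-fold and 0 at 1.5-fold. The count at least 1.5-fold different, whose alternatives were chosen after seeing the data, was 2 with a pseudocount of 0.1 CPM and 0 under the other 8. The count at 1.2-fold stayed at 3 with DESeq2 size factors, library totals, a pseudocount of 0.1 CPM, a count minimum of 10 or none. The medians of oxidation, uptake and activation, and storage genes kept their sign under the 9 alternatives. That of lipolysis genes was -0.004 and ran from -0.05, with a count minimum of 10, 200 or none, to 0.001 with DESeq2 size factors. That of uptake and activation genes ran from 0.02 with a pseudocount of 5 CPM to 0.12 with a count minimum of 10. The number of members above 0 was 19, between 17 and 21 under the alternatives. The 365 values of single members under these alternatives each moved by less than their counting interval. Those under other count minimums could not move, since a minimum drops genes and changes no ratio. Wide intervals also let low genes move far. MGLL ran from 0.04 with FPKM plus 1 to 0.59 with a pseudocount of 0.1 CPM, and PLIN4 from -0.09 to -0.61 under the same 2 settings. Depth limits FABP3, ACSL6, PLIN4 and MGLL, whose intervals are the widest.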

Other observations

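The order of levels within a family rests on the gene length behind FPKM. That length was a median of 1.93 times the GENCODE transcript with the longest coding sequence over the 41 measured members, and up to 8.64 times for HSD17B4. With CPM divided by the length of that transcript, LPIN1 stood above LPIN2 in both libraries, at 37.4 against 12.9 CPM per kb in the control library, where FPKM gave 9.74 against 10.9. ETFA remained above ETFB, at 74.0 against 2.53 CPM per kb, CPT1A above CPT1C, at 51.2 against 23.0, and ACSL1 above ACSL3, at 51.5 against 44.1. PLIN3 stood only slightly above PLIN2 in the control library, at 20.5 against 18.8 CPM per kb, where FPKM gave 17.5 against 7.41.

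Of the 41 measured members 21 share exon bases with another gene in GENCODE release 29. In 2, ACAA1 with 21.2% and ECI2 with 29.8%, the share was over 20%. The same share over all genes was not computed. For some members the length behind FPKM was far above the GENCODE exon bases, as for ETFDH (23865 against 4493) and HSD17B4 (24901 against 10664). For such genes the overlap in the annotation used for counting is not known.

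The letters GGAC, the core of the m6A consensus that IGF2BP proteins are known to read, occurred at a median of 4.14 per kb in the transcripts of the 41 members and 3.79 per kb over 11607 measured genes with a coding transcript. PLIN4 had 65 matches and CPT1C 30, at 10.02 and 10.8 per kb, while ACADM had 1, at 0.46 per kb. As a description across genes, which share 1 pair of libraries and are not replicates, the Spearman correlation of this density with the log2 ratio was -0.09 over the members and -0.23 over all genes. The density also moved with GC content, at a Spearman correlation of 0.74 over all genes, and GC content with the log2 ratio at -0.34 over all genes and -0.30 over the members; the part of GC content in the ratios was not tested.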
